A study of Mus musculus with 9 samples.

Results

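The response of mouse plasmacytoid dendritic cells (pDCs) to oxidized mitochondrial DNA (Ox-mtDNA) was compared with that to phosphate-buffered saline (PBS, the vehicle) across all genes. The pDCs had been isolated by fluorescence-activated sorting, and their polyadenylated RNA was sequenced after treatment. The comparison used 6 of the 9 libraries of the series: the 3 labelled Ox-mtDNA and the 3 labelled PBS. The other 3 libraries, of pDCs given mitochondrial DNA (mtDNA) that was not labelled as oxidized, shared the model and are quoted where they place a value. The labels used here give no dose, treatment time, strain, age or sex, and do not state whether replicates came from separate animals or cultures, and p-values therefore reflect only the spread among the sequenced samples. Libraries with the same replicate number were treated as pairs, which gives 3 pairs of an Ox-mtDNA and a PBS library.

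Plasmacytoid dendritic cells are known for sensing nucleic acids in endosomes through the Toll-like receptors TLR7 (RNA) and TLR9 (DNA) and for secreting type I interferon. Interferon in turn acts through its receptor to raise a large set of interferon-stimulated genes, many of which carry an interferon-stimulated response element in their promoters. Cells under amino acid shortage, heme shortage or protein stress phosphorylate the translation factor eIF2, which favours synthesis of the transcription factor ATF4 and of its targets. This last program is called the integrated stress response.

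Total counts per library ranged from 16029951 to 25378884. The summed level of 30 pDC identity genes, in CPM (counts as a rate of the library total after TMM scaling), was 19741, 24801 and 21887 in PBS replicates 1 to 3, and 17162, 9822 and 13286 in the Ox-mtDNA replicates, with no member at 0 in any library. In pair 1, nearly all of the fall of this sum lay in a single member, Mpeg1, whose values are given below. Siglech was slightly higher in that pair, at 1717 CPM in PBS and 1796 CPM in Ox-mtDNA. The summed levels of 16 B cell markers were 3532 to 4386 in PBS and 3634 to 4433 in Ox-mtDNA, and those of 15 monocyte and macrophage markers 1387 to 2624 and 1063 to 1502. The 14 markers of type 1 conventional dendritic cells varied more, at 3606, 3886 and 1233 in PBS and 4824, 1557 and 2050 in Ox-mtDNA replicates 1 to 3, so their sum was higher in pairs 1 and 3 and lower in pair 2. The 14 markers of type 2 conventional dendritic cells summed to 621 to 947, 16 T cell markers to 407 to 694 and 13 NK cell markers to 72.8 to 256. The 14 neutrophil markers summed to at most 28.4 and 12 erythroid and platelet markers to at most 23.3 in these 6 libraries. Replicate 3 stood apart in every group, with Xist at 818 to 2087 CPM against at most 0.846 CPM in the other replicates. Y-linked genes summed to 0.911 to 5.11 CPM in replicate 3 against 258 to 374 CPM, so sex-linked transcripts set it apart. The median level of genes with over 60% GC was -0.94 to -0.28 log2 CPM in replicate 3 against 2.87 to 3.14. Values are therefore given by replicate for the genes that the results turn on. In sorted cells sequenced in bulk, fewer cells of a type and less RNA per cell cannot be told apart.

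Of 17555 genes tested with the quasi-likelihood test of edgeR and the replicate number as a block, 1 passed an adjusted p of 0.05, which is 0.00570% of the genes. This gene, Kctd19, was higher after Ox-mtDNA, but it entered the test only through treated libraries. The next smallest adjusted p was 0.115, shared by many genes. An unadjusted p under 0.05 was reached by 3345 genes (19.1% of those tested), of which 1939 had higher and 1406 lower levels after Ox-mtDNA. As a description of size, 552 genes were at least 2-fold higher in every pair (3.14%), and 150 were at least 2-fold lower in every pair (0.854%). The log2 fold change was positive for 54.0% of all tested genes. Counts of list members below are to be read against these shares. With the Wald test of DESeq2 and the same block, 1341 genes passed an adjusted p of 0.05 (7.64%), 838 of them higher and 503 lower. These included 474 of the 552 and 126 of the 150. All other genes named below missed the threshold of the edgeR test, and their values are given as differences. Most were chosen for small p-values, which favours groups that do not overlap. The share of all tested genes without overlap was not counted, so a lack of overlap only describes a gene.

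The 3 pairs differed from each other. The log2 differences of replicate 1 and replicate 3 had a Pearson correlation across genes of 0.54, against 0.18 for replicates 1 and 2 and 0.29 for replicates 2 and 3 (17555 genes, which are not independent). The pairs share no library. In all 3 pairs, 6635 genes (37.8%) had the same sign, 3542 of them higher and 3093 lower. The spread of the log2 differences was 0.967, 1.12 and 1.28 (SD over genes) in replicates 1, 2 and 3.

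**Figure D1:**
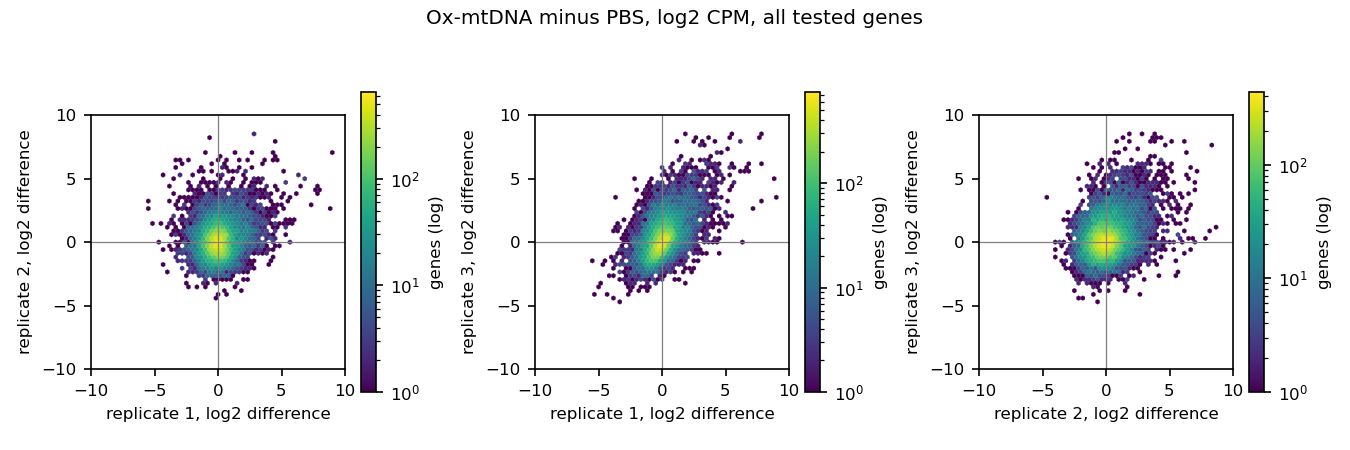
Log2 CPM differences between Ox-mtDNA and PBS for all 17555 tested genes, each panel setting the differences of a pair of replicates against each other, with colour for the number of genes per hexagon on a log scale. The cloud follows the diagonal most in the panel of replicates 1 and 3 (r = 0.54) and least in that of replicates 1 and 2 (r = 0.18).

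Kctd19 encodes a protein with a potassium channel tetramerization domain that is known from meiosis in the testis. It stood at 0.0465, 0.206 and 0.114 CPM in PBS replicates 1 to 3, which is 1, 4 and 3 counts, and at 3.85, 27.0 and 8.72 CPM in Ox-mtDNA, which is 57, 510 and 169 counts. The lowest Ox-mtDNA value was above the highest PBS value. Within each replicate the mtDNA library lay between, at 1.71, 4.85 and 4.73 CPM. With so few counts in PBS, Kctd19 passed the filter on low counts only through treated libraries, so its direction carries no weight. The log2 fold change was 6.53 (SE 0.515, adjusted p = 0.0267, edgeR quasi-likelihood test), and the pairs differed by 4.73, 6.45 and 5.35. The call was lost without the replicate block (adjusted p = 0.472) and without any single PBS or Ox-mtDNA library, where the adjusted p ran from 0.0530 without Ox-mtDNA replicate 3 to 0.224 without PBS replicate 3. The fold itself stayed between 5.97 and 6.80 on the log2 scale in those fits.

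The genes beside Kctd19 were higher as well. Kctd19 lies on the minus strand of chromosome 8 (GRCm39, chr8:106109439-106140134), and the run of adjacent tested genes from Slc9a5 through Plekhg4, Kctd19 and Lrrc36 to Tppp3 was at least 2-fold higher in every pair. Plekhg4, a guanine nucleotide exchange factor gene, was at 0.279, 0.103 and 0 CPM in PBS and 7.90, 25.2 and 1.70 CPM in Ox-mtDNA (log2 fold change 6.08, SE 0.889, adjusted p = 0.115). It shares exon bases with Kctd19 on the other strand, and counts made without strand cannot divide reads there between them. Tppp3, which encodes a tubulin-binding protein and shares no exon with its neighbours, was at 0.419, 0.516 and 0.190 CPM in PBS and 6.01, 22 and 1.75 CPM in Ox-mtDNA (4.28, SE 0.645, adjusted p = 0.115). Hsd11b2, further along, was also 2-fold higher in every pair, by 1.80, 6.47 and 2.82 on the log2 scale. Between it and Tppp3, Zdhhc1 differed by 1.20, 0.62 and 2.67. On the other side, E2f4 differed by -0.43, 0.06 and -0.32.

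**Figure D2:**
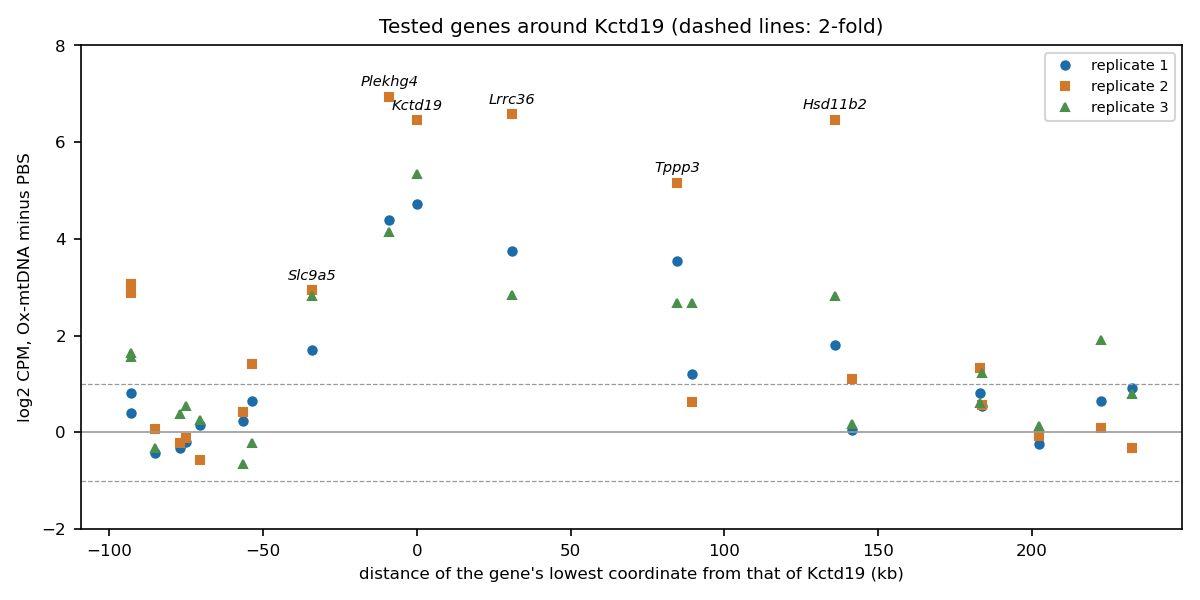
Log2 CPM difference between Ox-mtDNA and PBS in each replicate (points) for the tested genes around Kctd19, by distance of a gene's lowest coordinate from that of Kctd19 in kb; dashed lines mark 2-fold, and genes past 2-fold in every pair are named. The points of Plekhg4, Kctd19, Lrrc36 and Tppp3 stand above 2.6 in all 3 replicates, while those of E2f4 lie near 0.

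Such runs were common among the genes 2-fold higher in every pair. Of these 552 genes, 205 (37.1%) had an adjacent tested gene in the same set, while 5.92% of all tested genes had such a neighbour. Leaving out neighbours with shared exon bases, the shares were 22.6% and 5.24%. Among the 150 lower genes 30.7% had a neighbour in the set against 1.66% of all genes, or 16.7% and 1.44% without shared exons. The longest run of higher genes held 11 genes at the Hist1 histone cluster on chromosome 13. Not all were Hist1 genes, since ENSMUSG00002075675 and ENSMUSG00002076162 had no symbol. Of the 552 genes, 287 (52.0%) had a mean under 0.5 CPM in PBS, against 9.27% of all tested genes and 0 of the 150 lower genes. Among the 287 were Kctd19, Plekhg4, Lrrc36, Tppp3, Hsd11b2, Grhl2, Muc3, Hist1h4b, Nupr1, Spry4 and Areg. A gene with so few counts in PBS enters the test only through the treated libraries, so the filter and the fold rule set this number, and the direction of such genes carries no weight.

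Genes with the smallest p-values among those higher in every pair included regulators of polyamines, monocarboxylate transport, hypoxia signalling and growth arrest. Odc1, which makes putrescine as the limiting step of polyamine synthesis, was at 115, 78.8 and 64.7 CPM in PBS replicates 1 to 3 and at 442, 674 and 527 CPM in Ox-mtDNA. Every Ox-mtDNA library lay above every PBS library (log2 fold change 2.65, SE 0.398, adjusted p = 0.115). The polyamine list as a whole had a median of 0.13 over 15 genes, close to the median of 0.06 over all tested genes.

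Slc16a6, a monocarboxylate transporter gene that shares exon bases with Amz2 and Arsg, stood at 14.2, 13.8 and 5.96 CPM in PBS and 98.4, 126 and 255 CPM in Ox-mtDNA (3.55, SE 0.607). Gadd45g, a stress sensor of growth arrest, was at 5.02, 5.67 and 1.94 CPM in PBS and 59.3, 89.3 and 56.3 CPM in Ox-mtDNA (3.98, SE 0.700). For both genes the groups did not overlap. Vegfa, the vascular growth factor, had 24.7, 18.6 and 0.456 CPM in PBS and 76.6, 100.3 and 3.35 CPM in Ox-mtDNA, and Siah2, a ubiquitin ligase of the hypoxia pathway, had 29.9, 22.6 and 0.342 CPM and 77.4, 68.7 and 1.70 CPM. For these 2 genes the groups overlapped because both libraries of replicate 3 were low, yet each pair differed by at least 1.37 on the log2 scale. The glycolysis and hypoxia list had a median of 0.31 over 26 genes, with 2 at least 2-fold higher in every pair. Of its genes 18 were positive (69.2%), against 54.0% of all tested genes.

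**Figure D3:**
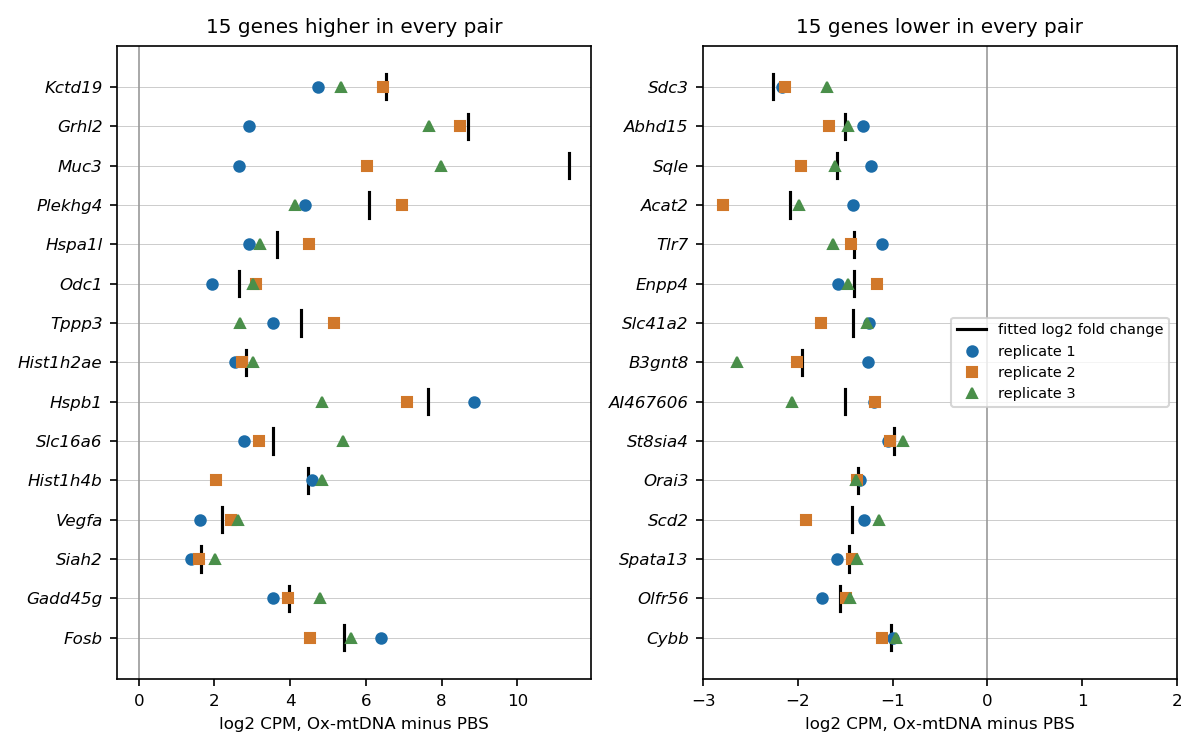
Log2 CPM difference between Ox-mtDNA and PBS in each replicate (coloured points) and the fitted log2 fold change (black bars) for the 15 genes with the smallest p-values among those higher in every pair (left) and lower in every pair (right) with a mean of at least 5 CPM. Replicates lie close together for Siah2 and Orai3 and far apart for Muc3 and Grhl2; the fitted value of Muc3, which had no count in PBS, depends on the prior count of the fit.

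Stress and early response genes were also among the 15. Hspb1, a small heat shock protein, was at 0.977, 2.42 and 0.342 CPM in PBS and 504, 344 and 12.5 CPM in Ox-mtDNA (7.64, SE 1.28, adjusted p = 0.115). Fosb, an AP-1 subunit, was at 2.7, 3.92 and 0 CPM in PBS and 236, 91.8 and 4.85 CPM in Ox-mtDNA. In both genes every Ox-mtDNA library exceeded every PBS library, and replicate 3 was the lowest of the Ox-mtDNA libraries. Hspa1l, which lies beside the near-identical Hspa1a and Hspa1b and shares exon bases with Gm10501, differed by 2.93, 4.49 and 3.20.

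Among the higher genes were some known chiefly from epithelia. Grhl2, an epithelial transcription factor, had no count in PBS replicates 1 and 2 and 0.266 CPM in replicate 3, against 0.675, 36.6 and 74.9 CPM in Ox-mtDNA. Muc3, an intestinal mucin gene, had no count in any PBS library and 8, 125 and 502 counts in Ox-mtDNA. Against a floor of 3 counts over the PBS group, Muc3 was at least 268-fold higher, and at least 88.4-fold without Ox-mtDNA replicate 3, which held most of the counts. Their levels were also above PBS in the mtDNA libraries, where Grhl2 was at 1.17, 2.15 and 32.5 CPM. Replicate 1 had the smallest difference for both genes. Grhl2 and Muc3 passed the filter on low counts only through treated libraries, so their direction carries no weight.

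Histone genes of the Hist1 cluster, a group chosen after its values were seen, had a median log2 fold change of 2.51 over 46 tested genes, with 45 positive, 40 at an unadjusted p under 0.05 (all 40 higher) and 25 at least 2-fold higher in every pair. The medians per pair were 2.60, 1.11 and 3.20. Hist1h2ae was at 1.81, 0.825 and 2.58 CPM in PBS and at 11.1, 6.08 and 21.5 CPM in Ox-mtDNA (2.84, SE 0.430, adjusted p = 0.115). Hist1h4b was at 0.605, 0.155 and 0.607 CPM in PBS and 16.8, 0.952 and 20.2 CPM in Ox-mtDNA, so its difference in replicate 2 was the smallest. Hist1h2ae shares exon bases with ENSMUSG00002075675, and Hist1h4b with 4930558J22Rik. Replication-dependent histone mRNAs are known to lack a poly(A) tail and to be made in S phase. A list of 36 cell cycle and DNA replication genes had a median of 0.06, with pair medians of 0.38, -0.43 and 0.39. Histone genes have near-identical copies, and reads aligning to several places were not counted, so single members are uncertain.

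Genes of the integrated stress response were higher after Ox-mtDNA. All 23 tested members of the list of 24 had a positive log2 fold change, with a median of 1.36. An unadjusted p under 0.05 was reached by 16, all of them higher, and 7 were at least 2-fold higher in every pair. The 7 include Nupr1 and Chac1, which needed treated libraries to pass the filter on low counts. The medians of the list per pair were 0.55, 2.06 and 1.01, so replicate 2 had the largest difference, and without replicate 3 the median was 1.47. By contrast the unfolded protein response list (23 genes) had a median of -0.03 and the 26S proteasome list (31 genes) a median of 0.08.

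Among the members with the smallest p-values, Nupr1, a stress-induced nuclear protein, stood at 0.419, 0.103 and 0.114 CPM in PBS and 2.16, 2.22 and 1.44 CPM in Ox-mtDNA (3.29, SE 0.577, adjusted p = 0.115). Ppp1r15a, the phosphatase subunit that reverses eIF2 phosphorylation, was at 18.5, 15.2 and 5.16 CPM in PBS and 148, 179 and 71.0 CPM in Ox-mtDNA (3.38, SE 0.675, adjusted p = 0.115). For both genes all 3 Ox-mtDNA libraries lay above all 3 PBS libraries. Nupr1, however, passed the filter on low counts only through treated libraries, so its direction carries no weight. The following members were chosen after their values were seen, to show the range within the list. Atf4 itself was at 158, 151 and 168 CPM in PBS and at 371, 511 and 437 CPM in Ox-mtDNA. Chac1, which degrades glutathione, was at 3.35, 0.516 and 0.0380 CPM in PBS and 15, 25.1 and 1.34 CPM in Ox-mtDNA. With so little in PBS replicate 3, Chac1 needed treated libraries to pass the filter on low counts, so its direction carries no weight. Slc7a11, the cystine importer, differed in opposite directions between pairs: it was at 11.4, 2.58 and 2.77 CPM in PBS and at 1.15, 252 and 1.96 CPM in Ox-mtDNA, so replicate 2 alone was higher.

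Promoters of this list were read for the ATF4 element, searched as TGATGNAA on both strands in RefSeq windows from 250 bases before to 50 after the gene start (GRCm38.p6). Of 20 members with a window, 7 (35%) held it, against 311 of 10756 tested genes with a window (2.89%). Of the genes at least 2-fold higher in every pair, 10 of 219 with a window held it (4.57%), and of those 2-fold lower 5 of 98 (5.10%). The ATF4 element was therefore not more common among the higher than among the lower genes. A match is a description of letters and not a measured binding site. The list is of known members of this program, so its share follows in part from the choice of genes. The 7 were Aars, Asns, Chac1, Nupr1, Slc7a11, Trib3 and Vldlr, and in 6 of them the difference was positive in every pair. The 6 include Nupr1 and Chac1, which needed treated libraries to pass the filter on low counts, so neither adds weight to this count. Of the members without the element, Atf4, Atf5, Ddit3, Mthfd2, Ppp1r15a, Shmt2 and Slc3a2 were also positive in every pair. Cebpb, Cebpg, Ddit4, Phgdh, Psat1 and Sesn2 were not. Over all tested genes, 3542 (20.2%) were positive in every pair. The upstream 250 bases of Chac1 (chr2:119350992-119351241, plus strand) and Nupr1 (chr7:126625471-126625720, minus strand) are shown because both genes were at least 2-fold higher in every pair; capitals mark the match, which in both reads on the opposite strand.
Chac1: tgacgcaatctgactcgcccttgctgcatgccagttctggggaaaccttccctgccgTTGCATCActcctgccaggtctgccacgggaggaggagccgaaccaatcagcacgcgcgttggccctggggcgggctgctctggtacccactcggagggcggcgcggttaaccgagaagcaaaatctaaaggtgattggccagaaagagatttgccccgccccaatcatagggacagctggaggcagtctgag
Nupr1: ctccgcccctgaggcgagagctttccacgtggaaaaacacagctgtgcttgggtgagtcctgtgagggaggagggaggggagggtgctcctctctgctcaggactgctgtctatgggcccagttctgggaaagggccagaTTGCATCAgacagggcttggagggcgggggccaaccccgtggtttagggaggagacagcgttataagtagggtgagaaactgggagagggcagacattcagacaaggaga

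Feedback inhibitors of MAP kinase signalling were higher too, with a median of 1.96 over 16 genes, 15 of them at an unadjusted p under 0.05 (14 higher and 1 lower) and 7 at least 2-fold higher in every pair (pair medians 1.38, 2.26 and 2.15). Dusp1, a phosphatase that inactivates p38 and JNK, stood at 7.02, 5.05 and 2.01 CPM in PBS and 272, 128 and 118 CPM in Ox-mtDNA (5.12, SE 0.947, adjusted p = 0.115). Spry4, an inhibitor of receptor tyrosine kinase signalling, was at 0.233, 0 and 1.18 CPM in PBS and 12.4, 4.60 and 10.9 CPM in Ox-mtDNA (5.19, SE 0.915, adjusted p = 0.115). In both genes the groups were well separated, but Spry4 passed the filter on low counts only through treated libraries. Dusp1 passed the edgeR threshold when the 6 libraries of the comparison were fitted alone (adjusted p = 0.0483). The list of CREB and cAMP targets had a median of 1.34 over 17 genes (pair medians 0.27, 1.34 and 1.56), and 5 were at least 2-fold higher in every pair. Nfil3, a basic leucine zipper repressor, was at 5.07, 4.02 and 4.44 CPM in PBS and at 19.5, 23.9 and 49.6 CPM in Ox-mtDNA. Areg, an EGF receptor ligand, was at 0.186, 0.103 and 0.0380 CPM in PBS and at 3.71, 3.07 and 14.5 CPM in Ox-mtDNA.

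Genes of ribosomes and of RNA processing were modestly higher, with a spread between pairs that differed by list. Ribosome biogenesis genes (34 tested) had a median of 0.25, with pair medians of 0.07, 0.21 and 0.52. The log2 fold change was positive for each of 50 ribosomal protein genes, at a median of 0.49 (pair medians 0.56, 0.56 and 0.35). An unadjusted p under 0.05 was reached by 48, although 0 were 2-fold higher in every pair. Rplp2, a protein of the ribosomal stalk, was at 412, 413 and 643 CPM in PBS and 643, 670 and 957 CPM in Ox-mtDNA (0.64, SE 0.175). Translation factors had a median of 0.47 (20 of 21 positive), and splicing kinases and SR proteins a median of 0.57 (21 of 23 positive), which was 0.31 without replicate 3 (pair medians 0.57, 0.21 and 0.38). Long noncoding RNAs that host small nucleolar RNAs or stay in the nucleus had a median of 0.89 (15 of 17 positive; pair medians 0.96, 0.65 and 1.05). Snhg1, which hosts several small nucleolar RNAs and shares exon bases with them, was at 20.8, 25.7 and 39.0 CPM in PBS and 54.7, 63.7 and 80.7 CPM in Ox-mtDNA. Ubiquitin and protein quality control genes were positive in 21 of 22 cases with a median of 0.39. Zfand5, a proteasome-activating zinc finger protein, was the member with the smallest p, at 123, 116 and 28.9 CPM in PBS and 307, 579 and 99.9 CPM in Ox-mtDNA.

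**Figure D4:**
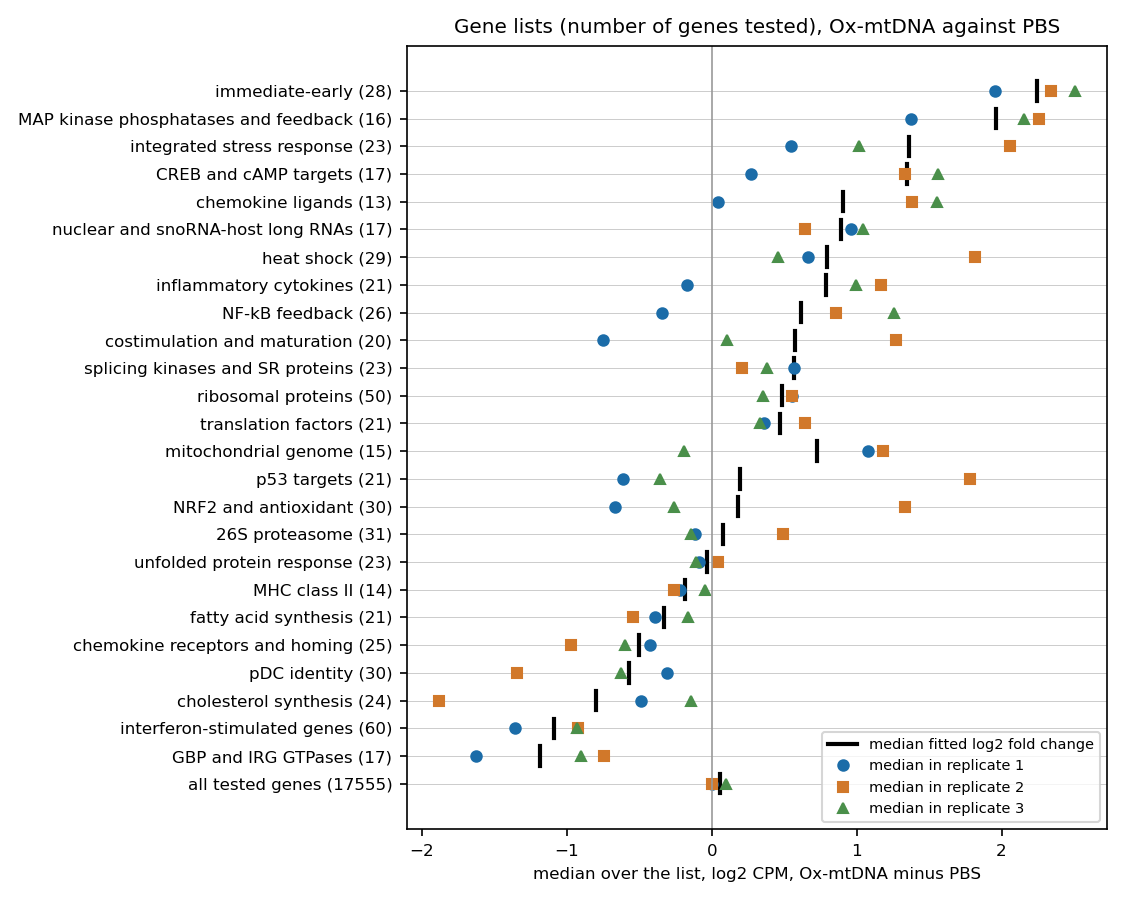
Median log2 CPM difference between Ox-mtDNA and PBS over the genes of 25 lists and over all tested genes, with the number of genes tested in brackets; coloured points are medians within a replicate and black bars medians of the fitted log2 fold change. Immediate-early genes and MAP kinase feedback genes lie above 1.3 in all 3 replicates, interferon-stimulated genes and GBP and IRG GTPases lie below -0.7 in all 3, and costimulation, p53 and NRF2 lists have replicates on both sides of 0.

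The genes lower in every pair included enzymes of sterol and lipid synthesis. Sqle, squalene epoxidase of cholesterol synthesis, was at 214, 353 and 349 CPM in PBS and 91.4, 90.0 and 115 CPM in Ox-mtDNA (log2 fold change -1.59, SE 0.240, adjusted p = 0.115). Acat2, the cytosolic acetyl-CoA acetyltransferase that starts the pathway, was at 57.5, 136 and 132 CPM in PBS and 21.5, 19.6 and 33.0 CPM in Ox-mtDNA (-2.08, SE 0.319, adjusted p = 0.115). Both were lower in all 3 Ox-mtDNA libraries than in any PBS library. Scd2, a fatty acid desaturase, was at 566, 943 and 798 CPM in PBS and at 230, 249 and 362 CPM in Ox-mtDNA (-1.43, SE 0.253). The cholesterol synthesis list had a median of -0.80 with 22 of 24 negative, 12 at an unadjusted p under 0.05 (all 12 lower) and 4 (Acat2, Sqle, Lss and Stard4) at least 2-fold lower in every pair. Its pair medians were -0.49, -1.88 and -0.14, so replicate 2 had the largest difference and replicate 3 a small one. Fatty acid synthesis had a median of -0.33 over 21 genes (pair medians -0.39, -0.55 and -0.16).

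Among the other named lower genes, Tlr7, the endosomal RNA sensor, stood at 213, 304 and 320 CPM in PBS and 98.4, 112 and 103 CPM in Ox-mtDNA (-1.41, SE 0.228, adjusted p = 0.115). Tlr9, the DNA sensor, showed no such uniform pattern, with 256, 285 and 11.6 CPM in PBS and 50.6, 198 and 21 CPM in Ox-mtDNA, and the list of endosomal Toll-like receptor machinery had a median of -0.02 over 24 genes. Cybb, the catalytic subunit of the phagocyte NADPH oxidase, was at 986, 1185 and 1358 CPM in PBS and 493, 547 and 697 CPM in Ox-mtDNA (-1.02, SE 0.187, adjusted p = 0.115). Orai3, a subunit of store-operated calcium channels, had nearly equal differences in the 3 pairs, at -1.35, -1.37 and -1.38. St8sia4, a polysialyltransferase, differed by -1.05, -1.03 and -0.89. Sdc3, a cell surface heparan sulfate proteoglycan, was at 72.2 and 187 CPM in PBS replicates 1 and 2 and at 15.9 and 42.5 CPM in the matching Ox-mtDNA libraries, while it was almost absent in replicate 3 (0.228 CPM in PBS). The other 6 of the 15 named lower genes (Abhd15, Enpp4, Slc41a2, B3gnt8, AI467606 and Spata13) had log2 fold changes from -1.96 to -1.41; Abhd15 shares exon bases with Gm10392. Olfr56 had a log2 fold change of -1.56 but shares exon bases with the interferon-induced GTPase gene Ifi47 (-1.30).

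Most interferon-stimulated genes were lower after Ox-mtDNA. Of 60 tested, 51 had a negative log2 fold change, and the median was -1.09 (pair medians -1.36, -0.92 and -0.93). An unadjusted p under 0.05 was reached by 29 (27 lower and 2 higher), and 13 were at least 2-fold lower in every pair while none was 2-fold higher. Isg15, a ubiquitin-like antiviral protein, stood at 29.9, 45.9 and 16.9 CPM in PBS and 9.25, 20.9 and 5.16 CPM in Ox-mtDNA (-1.53, SE 0.467, adjusted p = 0.167). The groups overlapped, since Isg15 in PBS replicate 3 lay below its level in Ox-mtDNA replicate 2. Slfn8, of the Schlafen family, was at 147, 154 and 178 CPM in PBS and at 43.0, 52.2 and 33.0 CPM in Ox-mtDNA, with no overlap (-1.99, SE 0.487, adjusted p = 0.131). Irf7, the transcription factor that drives interferon genes in pDCs, was at 155, 310 and 80.8 CPM in PBS and 76.2, 73.7 and 43.5 CPM in Ox-mtDNA.

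The list had exceptions. Ifit1 differed by -1.91, 0.50 and 1.14 in the 3 pairs. Ifitm2, which restricts virus entry, was at 40.1, 22.9 and 60.1 CPM in PBS and 57.6, 55.5 and 117 CPM in Ox-mtDNA (0.92, SE 0.208). The interferon-induced GTPases of the GBP and IRG families, of which 14 of 17 were negative, had a median of -1.18 (pair medians -1.63, -0.74 and -0.90). Iigp1 was at 20.8, 23.5 and 10.1 CPM in PBS and 1.28, 4.92 and 0.413 CPM in Ox-mtDNA (-3.68, SE 0.944, adjusted p = 0.138). Igtp, which shares exon bases with Irgm2, was at 46.8, 51.3 and 35.6 CPM in PBS and 14.4, 22.1 and 8.15 CPM in Ox-mtDNA (-1.72, SE 0.450). In both GTPase genes every Ox-mtDNA library was below every PBS library.

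The interferon-stimulated response element, searched as GAAANNGAA on both strands in the same windows, was present in 26 of 45 interferon-stimulated genes (57.8%), in 9 of 10 GBP and IRG genes, and in 956 of 10756 tested genes (8.89%). Both lists are of genes known to be induced by interferon, so their shares follow in part from the choice of genes. Of the genes at least 2-fold lower in every pair, 24 of 98 with a window held it (24.5%), and of those 2-fold higher 19 of 219 (8.68%). The lower genes with the element include members of both lists, such as Isg15, Slfn8 and Igtp, so their share is not separate from those of the lists. The upstream 250 bases of Isg15 (chr4:156200819-156201068, minus strand) and Igtp (chr11:58199306-58199555, plus strand) are shown because both were lower in every pair; capitals mark the matches, which overlap each other in Isg15.
Isg15: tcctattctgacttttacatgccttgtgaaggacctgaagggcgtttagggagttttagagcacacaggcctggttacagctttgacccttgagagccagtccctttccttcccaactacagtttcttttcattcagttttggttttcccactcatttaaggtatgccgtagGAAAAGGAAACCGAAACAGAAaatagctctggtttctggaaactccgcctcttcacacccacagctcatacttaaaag
Igtp: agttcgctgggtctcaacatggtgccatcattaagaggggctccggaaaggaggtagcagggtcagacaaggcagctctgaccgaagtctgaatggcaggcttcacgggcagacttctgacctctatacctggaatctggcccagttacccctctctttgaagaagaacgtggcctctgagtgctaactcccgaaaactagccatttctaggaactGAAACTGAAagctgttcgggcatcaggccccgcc

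Of 21 type I and III interferon genes listed, 2 passed the filter on low counts, Ifnb1 and Ifna2. Both had almost no counts in PBS and passed only through treated libraries, so their direction was fixed by the filter, and the other 19 were not tested. Ifnb1 had 1, 0 and 0 counts in PBS and 106, 5 and 682 counts in Ox-mtDNA, so replicate 2 held little. The pooled ratio was 1004 (95% exact counting interval 180 to 39708, which covers counting error only). It was 221 without Ox-mtDNA replicate 3 and 1549 without Ox-mtDNA replicate 2. The mtDNA libraries had 6, 0 and 900 counts of Ifnb1. Ifna2 had no count in PBS and was at 1.55, 0.0529 and 1.70 CPM in Ox-mtDNA, at least 24.1-fold higher against a floor of 3 counts over the PBS group. This bound was 16-fold without Ox-mtDNA replicate 3 and 36.7-fold without Ox-mtDNA replicate 2.

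Chemokine and cytokine genes varied between the pairs. Ccl4, a chemokine that attracts leukocytes, was at 3.02, 2.11 and 2.05 CPM in PBS and 604, 41.6 and 607 CPM in Ox-mtDNA (6.46, SE 1.76, adjusted p = 0.145), and Ccl3 differed by 6.02, 1.72 and 5.56. In both, replicate 2 had the smallest difference, as it had for Ifnb1. Cxcl10, an interferon-inducible chemokine, was at 18.5, 4.07 and 4.37 CPM in PBS and 19, 25 and 37.1 CPM in Ox-mtDNA, so the difference in replicate 1 was 0.04 on the log2 scale. Tnf was at 10.7, 6.50 and 2.81 CPM in PBS and 34.6, 34 and 35.6 CPM in Ox-mtDNA, without overlap (2.33, SE 0.737, adjusted p = 0.174). Il6 differed by 0.41, 1.17 and 2.61, and Il12b by -1.33, 0.13 and 1.48. Tnfsf10, the death ligand TRAIL, was lower, at 7.35, 6.86 and 8.58 CPM in PBS and 2.57, 2.54 and 2.27 CPM in Ox-mtDNA. The 21 inflammatory cytokines had pair medians of -0.17, 1.17 and 0.99, and the 26 genes of NF-kB feedback -0.34, 0.86 and 1.26. Replicate 1 was the low one for both lists.

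Costimulatory genes did not share a direction. Cd83, a maturation marker, was at 34.6, 26.3 and 23 CPM in PBS and at 119, 124 and 200.2 CPM in Ox-mtDNA (2.25, SE 0.539, adjusted p = 0.129), without overlap. Cd40 was at 28.0, 24.2 and 11.9 CPM in PBS and 3.44, 39.6 and 3.35 CPM in Ox-mtDNA, lower in replicates 1 and 3 and higher in replicate 2. Cd86, the CD28 ligand, differed by -0.89, 1.12 and 0.56, and Cd80 by -1.19, 2.05 and 0.75. The list of 20 genes had pair medians of -0.75, 1.27 and 0.11. The p53 targets (-0.61, 1.78 and -0.36) and the NRF2 and antioxidant genes (-0.67, 1.33 and -0.26) had medians above 0 in replicate 2 and below 0 in replicates 1 and 3. Hmox1, the heme-degrading enzyme and an NRF2 target, was at 192, 69.2 and 37.5 CPM in PBS and 814, 3478 and 58.9 CPM in Ox-mtDNA, with the largest difference in replicate 2. Transcripts of the mitochondrial genome had pair medians of 1.08, 1.18 and -0.19. Their median was 0.73 over 15 genes, 0.46 without replicate 2 and 1.16 without replicate 3. For example, mt-Co3, a subunit of cytochrome c oxidase, was at 7.07, 6.65 and 13.2 CPM in PBS and at 20.1, 24.6 and 16.5 CPM in Ox-mtDNA.

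Genes that mark pDCs were lower in most cases, with a median of -0.57 over 30 genes, 27 negative, and pair medians of -0.31, -1.35 and -0.63. The library with the lowest summed level of the list was Ox-mtDNA replicate 2. Siglech, a defining surface receptor of mouse pDCs, was at 1717, 2258 and 2440 CPM in PBS and 1796, 1194 and 2015 CPM in Ox-mtDNA, with overlapping groups (-0.36, SE 0.229, adjusted p = 0.435). Mpeg1, the pore-forming perforin-2, was at 4580.3, 5719 and 6773 CPM in PBS and at 2016, 2392 and 1801 CPM in Ox-mtDNA (-1.49, SE 0.293, adjusted p = 0.115). Markers of type 1 conventional dendritic cells had a median of -0.54 over 14 genes, with pair medians of -0.55, -0.56 and -0.67. B cell markers had a median of 0.05 over 16 genes (pair medians -0.23, 0.51 and -0.55), and T cell markers 0.31 over 13 (-0.13, 0.69 and -0.13). The part of cell composition in the gene differences was not tested. Chemokine receptor and homing genes had a median of -0.51 over 25 genes (pair medians -0.42, -0.97 and -0.60). Ccr2 was at 566, 638 and 1486 CPM in PBS and at 325, 168 and 524 CPM in Ox-mtDNA, and Itga4, the alpha 4 integrin chain, at 319, 304 and 319 CPM and at 136, 129 and 169 CPM. Itga4 was lower in every Ox-mtDNA library than in every PBS library.

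Among DNA-handling genes, single members differed in either direction. Trex1, the main cytosolic DNA exonuclease, was at 135, 156 and 173 CPM in PBS and 71.4, 74.5 and 56.6 CPM in Ox-mtDNA, without overlap (-1.22, SE 0.254, adjusted p = 0.119). Cgas, the cytosolic DNA sensor, differed by 1.0, 0.08 and 2.75, and Tmem173, which encodes STING, by -0.09, -1.12 and -1.05. Among base excision repair genes, Smug1, a uracil glycosylase, was at 14.1, 17.2 and 11.8 CPM in PBS and 2.63, 6.51 and 2.27 CPM in Ox-mtDNA (-2.05, SE 0.410, adjusted p = 0.115). Neil1, a glycosylase for oxidized bases, was at 12.7, 17.5 and 10.4 CPM in PBS and at 24.6, 51.2 and 21 CPM in Ox-mtDNA (1.19, SE 0.278). The list of cytosolic DNA sensing and DNases had a median of -0.16 over 21 genes (pair medians -0.26, -0.60 and -0.07). Of its genes 15 were negative, and 28.6% were positive against 54.0% of all tested genes. The base excision repair list had a median of -0.05 over 18 genes, with 9 positive (pair medians 0.17, -0.52 and 0.12). Lysosomal (-0.08, 35 genes) and nuclear respiratory chain genes (0.02, 39 genes) had medians near that of all genes. MHC class II genes had a median of -0.19 over 14 genes, with 11 negative (pair medians -0.22, -0.26 and -0.05).

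**Figure D5:**
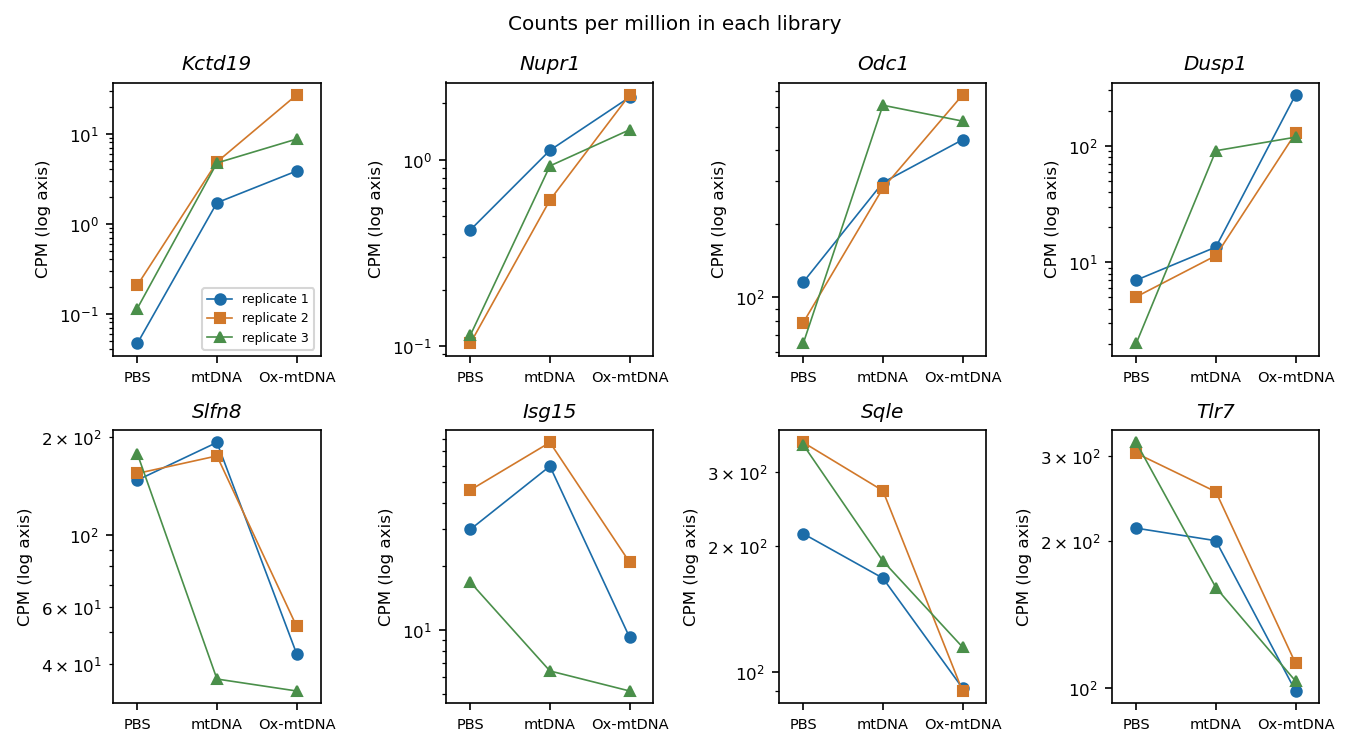
Levels in CPM on a log axis in each of the 9 libraries for 8 genes, with lines joining libraries of the same replicate number. Kctd19, Nupr1, Odc1 and Dusp1 are higher in Ox-mtDNA than in PBS in all 3 replicates, and Slfn8, Isg15, Sqle and Tlr7 are lower in all 3; the mtDNA library of replicate 3 lies nearer to its Ox-mtDNA than to its PBS library for all 8 genes, and those of replicates 1 and 2 do so for 3 (Kctd19, Nupr1 and Odc1).

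The 3 mtDNA libraries give these values a context within the same replicates. No gene passed the test of Ox-mtDNA against mtDNA (0% of 17555, smallest adjusted p = 0.405, edgeR quasi-likelihood test with the replicate block), where 1195 genes had an unadjusted p under 0.05. In replicates 1 and 2, Dusp1 was at 13.5 and 11.4 CPM with mtDNA, between 7.02 and 5.05 CPM with PBS and 272 and 128 CPM with Ox-mtDNA. In replicate 3 Dusp1 was at 90.5 CPM with mtDNA, against 2.01 CPM with PBS and 118 CPM with Ox-mtDNA. Slfn8 was at 192 and 175 CPM with mtDNA in replicates 1 and 2 and at 35.9 CPM in replicate 3. Sqle was between its PBS and Ox-mtDNA levels in each replicate, at 167, 271 and 184 CPM.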

How the data were processed

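Polyadenylated RNA of sorted mouse pDCs was sequenced in 9 libraries, 3 per group. Per the submitters' processing notes, the tools were fastp 0.23.4 for trimming, STAR 2.7.11b with GRCm39 for alignment and featureCounts 2.0.1 for counting. The authors deposited raw counts for the genes of GENCODE M34 (per the file headers), made from exons without strand, with fragments on several genes counted for each and fragments with several alignments not counted. The table held 57126 genes, 19757 of them without a count.

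Groups come from the sample titles. Genes were filtered with filterByExpr of edgeR 4.0.16 (minimum count 10) in R 4.3.3, scaled with TMM factors and tested in a single robust quasi-likelihood model of all 9 libraries with the replicate number as a block (4 residual degrees of freedom), with Benjamini-Hochberg adjustment over 17555 genes and a threshold of 0.05. SE was taken from the F statistic. Log2 CPM differences per pair used a prior count of 2. Same-numbered libraries correlated in their deviations from group means at 0.487 to 0.897, so the numbers were taken as pairs. Differently numbered libraries of replicates 1 and 2 correlated at 0.524 to 0.708, so these values set replicate 3 apart and do not tell numbers 1 and 2 from each other. The scripts were tested on simulated data.

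Genes named are those past the threshold, the 15 higher and 15 lower genes with the smallest p among genes of one sign in every pair and a mean of at least 5 CPM, up to 3 genes per list, and a set of pDC and sensing genes. The 54 lists hold 1194 entries, of which 1193 matched a symbol. The members, lists and tests were chosen with earlier results of these data known. Alternatives were DESeq2 1.42.0, limma 3.58.1, other scaling, filters and prior counts, and leaving out libraries. Promoter sequences are from RefSeq on GRCm38.p6, and 10756 tested genes matched.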

Additional observations from a re-analysis of the deposited data

How the results depend on the processing

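The number of genes past the threshold was 1 in the reported fit. It was 0 without the replicate block, 1341 with the DESeq2 Wald test, 0 with limma-voom, 76 with limma-voom and sample quality weights, 1437 with no filter on low counts and 5 with only the 6 libraries of the comparison. The causes of these differences were not tested. It was 0 in each of the fits without replicate 1, 2 or 3 and in each without a single PBS or Ox-mtDNA library. The smallest adjusted p was 0.472 without the replicate block, where 1722 genes had an unadjusted p under 0.05, and 0.0715 with limma-voom, where 3698 did. In the fits without a replicate or library, 1972 to 4170 genes had one. Upper quartile factors, DESeq2 size factors in edgeR and a filter at 1 CPM each left 1 gene, Kctd19.

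Genes 2-fold higher in every pair numbered 552 and became 1012 at 1.5-fold; lower genes numbered 150 and became 551. Without a replicate, the higher genes numbered 742 to 1191 and the lower genes 273 to 631, since 2 pairs had to agree in place of 3. Other scaling, filter and prior count left both counts within 1.5 times. The interferon genes gave no median without replicate 3 or with only the 6 libraries, since no member passed the filter there.

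Named genes were refitted without the block, with DESeq2 size factors in edgeR, with only the 6 libraries and without replicates 1, 2 or 3. Of these 1111 values, 13 changed sign, none of them past a threshold. Without the replicate block, Pf4 became -0.11 and Il12b 0.23. With only the 6 libraries, Pf4 became -0.076, Ifit1 -0.016 and Il12b 0.18. Leaving out replicates 1, 2 or 3 gave ranges of -1.07 to 1.03 for Pf4, -2.57 to 0.018 for Ppbp, -1.34 to 0.13 for Tlr9, -0.54 to 0.80 for Ifit1, -0.59 to 0.72 for Il12b, -0.17 to 1.46 for Cd80 and -0.082 to 0.79 for Cd86. As a check added after seeing the data, the signs of 188 named genes were compared across tools: 0 changed with DESeq2, 3 with limma-voom (Pf4 -0.29, Ifit1 -0.021 and Il12b 0.41) and 2 with its quality weights (Pf4 -0.84 and Ifit1 -0.11). The folds of Muc3, Ifnb1 and Ifna2 without single libraries were also added after seeing the data. The log2 fold change of Kctd19 ran from 5.93 with quality weights to 6.80 without Ox-mtDNA replicate 3 over all of the fits. Of 322 medians of lists, 16 moved by more than their spread between pairs. Depth limits genes with few counts, such as Ifnb1 in PBS.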
